A study of Homo sapiens with 6 samples.

Results

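The 6 mucin genes MUC1, MUC4, MUC13, MUC5AC, MUC5B and MUC16 were examined in ChIP-seq lists of Calu-3 cells, a long-established line from a human lung adenocarcinoma, grown without treatment in low-glucose medium with serum. They were followed in 5 windows of the hg19 genome, each meant to hold the gene span plus about 20 to 50 kb on either side. MUC5AC and MUC5B lie next to each other and share 1 window. The 5 windows add up to 0.80 Mb and held 47 of the 73341 intervals in the 4 lists, namely 0 of 1537 peaks of EHF replicate 1, 2 of 5216 peaks of EHF replicate 2, 25 of 31950 H3K4me1 regions and 20 of 34638 H3K27ac regions. An interval was counted in a window when at least 1 bp of it lay there. EHF belongs to the ETS transcription factors, is found in epithelia, and like its relatives binds DNA around the letters GGAA. H3K4me1 is a histone mark typical of enhancers, and H3K27ac is typical of active enhancers and promoters. Each mark came from 1 library, so no mark value has a replicate check, and whether the 2 EHF libraries came from separate cultures is not given in the labels. The EHF libraries were called against one input DNA library and both marks against another.

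Mucins are heavily glycosylated proteins that line and protect wet epithelia. MUC5AC and MUC5B are secreted, and they polymerise into the gel of airway mucus. MUC1, MUC4, MUC13 and MUC16 span the cell membrane, where their sugar-bearing outer parts form part of the surface coat, and MUC16 carries the tumour antigen CA125. In the airway MUC5AC is known from goblet cells of the surface, and MUC5B also from the submucosal glands.

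The lists carry positions and scores without gene names, and no hg19 annotation or sequence was at hand. The windows therefore stand for the loci, and which base of a window belongs to which gene was not analysed here. Nor could the cell line be checked against marker genes. The order of genes along the chromosomes was read from RefSeq (GRCh38.p14), without coordinates. MUC1 lay between TRIM46 and THBS3, MUC4 next to MUC20, and MUC13 between ITGB5 and HEG1. MUC5AC followed MUC2, and MUC5B came between MUC5AC and TOLLIP. MUC16 had MBD3L1 on one side and OR1M1 on the other. An interval in a window may thus lie in or near one of these neighbours.

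Promoter sequences were found in RefSeq (GRCh38.p14) for 4 of the 6 genes, MUC1, MUC4, MUC13 and MUC16, all on the minus strand, and MUC1 and MUC16 each had 2 annotated starts. They are shown because EHF is an ETS factor. Whether each start lies inside its hg19 window was not checked, because the builds differ. The letters are therefore not set against the EHF peak counts of the windows. Each line gives the 250 bases before 1 start, 5′ to 3′, with every GGAA and its reverse complement TTCC in capitals. They belong to the MUC13 start at chr3:124934752-124935001, the first MUC1 start at chr1:155192916-155193165, the MUC4 start at chr3:195811930-195812179 and the first MUC16 start at chr19:9065752-9066001.
MUC13: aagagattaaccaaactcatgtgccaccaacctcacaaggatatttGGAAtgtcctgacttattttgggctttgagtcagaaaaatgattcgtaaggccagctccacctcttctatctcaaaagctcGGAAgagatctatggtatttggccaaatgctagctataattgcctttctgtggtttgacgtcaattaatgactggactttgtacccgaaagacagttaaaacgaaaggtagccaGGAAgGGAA
MUC1: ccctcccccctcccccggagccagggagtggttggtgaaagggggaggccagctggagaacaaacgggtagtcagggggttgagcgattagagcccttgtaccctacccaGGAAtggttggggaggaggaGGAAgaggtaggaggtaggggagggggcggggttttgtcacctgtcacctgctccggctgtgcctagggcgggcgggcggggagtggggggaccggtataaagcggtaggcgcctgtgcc
MUC4: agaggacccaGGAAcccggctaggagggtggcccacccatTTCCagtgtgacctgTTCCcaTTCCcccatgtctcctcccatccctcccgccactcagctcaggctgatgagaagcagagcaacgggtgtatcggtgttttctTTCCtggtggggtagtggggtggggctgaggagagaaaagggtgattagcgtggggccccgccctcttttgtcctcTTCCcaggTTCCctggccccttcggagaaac
MUC16: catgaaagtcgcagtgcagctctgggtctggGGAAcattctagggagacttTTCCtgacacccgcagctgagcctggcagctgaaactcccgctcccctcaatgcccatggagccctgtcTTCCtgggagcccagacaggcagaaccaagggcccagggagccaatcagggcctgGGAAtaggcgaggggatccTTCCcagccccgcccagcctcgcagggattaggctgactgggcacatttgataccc

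In the full 300 bases of each entry, which run 250 before to 50 after the start, MUC4 had 7 occurrences of GGAA, counting both strands. MUC13 had 5, the 2 MUC16 starts had 5 and 3, and each MUC1 start had 2. The 2 MUC1 entries overlap almost fully and so count nearly the same letters. Over all 35116 promoters of the table the median was 3, 95.5% held at least 1, 28.6% held 5 or more and 8.29% held 7 or more. The longer ETS forms CCGGAAGT and CAGGAAGT were in none of the 6 entries on either strand, and they occurred in 4.14% and 3.08% of all promoters. The longer forms contain GGAA, so the counts overlap. Of the 4 genes with an entry, MUC4 thus had a number of the short core that few promoters reach, and MUC1 was below the median. A match is a description of letters, and whether any of these positions lay in a called interval was not analysed here because the builds differ.

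Only the MUC13 window held EHF peaks, both from replicate 2. The first lay at 124597482 to 124597606 on chromosome 3 and had a score of 10, and the second lay at 124605027 to 124605151 with a score of 14. The score is the authors' own value for the interval, its tag count scaled to a library of 10000000 tags. In the whole replicate 2 list the median score was 12, 86.0% of peaks scored at least 10 and 33.2% at least 14. One peak was therefore below and the other above the middle of its list. Scores in that list ran from 6 to 693, so both peaks were near the lower end of that range. Neither was found in replicate 1, against a background of 14.7% of all replicate 2 peaks. Among replicate 2 peaks with the same scores, 6.48% of the 910 that scored 10 were found in replicate 1 (exact 95% interval 4.97% to 8.28%), as were 17.9% of the 336 that scored 14 (13.9% to 22.4%). The nearest replicate 1 peak was 2839 kb beyond the MUC13 window.

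The windows of MUC1, MUC4, MUC5AC with MUC5B, and MUC16 held no EHF peak in either list. These counts are small for any reading. At the density of the whole lists, 0.398 peaks of replicate 1 and 1.35 of replicate 2 would fall in 0.80 Mb. The observed 2 peaks of replicate 2 correspond to 2.50 per Mb (exact Poisson 95% interval 0.303 to 9.03), beside 1.69 per Mb over the genome. Per Mb of H3K27ac region, replicate 2 had 46.8 peaks in the windows (5.66 to 168.9) and 51.3 over the genome. By 10 kb bins, 2 of 80 bins held a replicate 2 peak, beside 1.61% of all bins, and 0 of 80 held a replicate 1 peak, beside 0.497%. Both intervals include the value of the whole list, so no difference in EHF peaks from the whole list was detectable. The density of replicate 2 peaks by chromosome was not computed. Outside the windows replicate 2 had 624 peaks on chromosome 3, 437 on chromosome 1, 206 on chromosome 11 and 200 on chromosome 19. These counts are not divided by length, so their order is not an order of density. The MUC13 window is on chromosome 3, and its count was not compared with the level of that chromosome. A missing peak means only that no position passed the caller's rules.

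**Figure D1:**
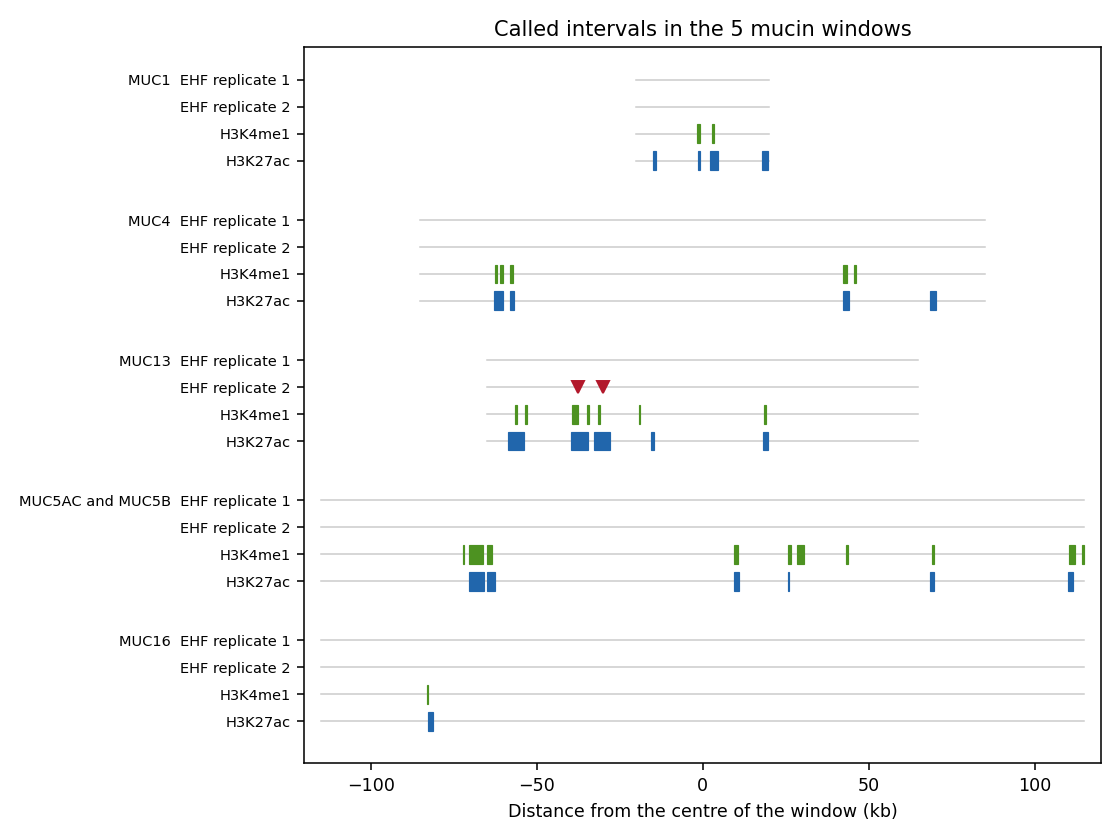
The called intervals of all 4 lists in the 5 windows, by distance from the centre of each window in kb. Boxes are mark regions at their width with a thin outline, triangles are EHF peaks and grey lines show the extent of each window. The 2 EHF peaks are in the MUC13 window, and the MUC16 window has 1 region of each mark.

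The EHF peaks nearest to the other windows were at a distance. For MUC4 the nearest was 109.9 kb beyond the lower end and was called in both replicates, with a score of 12 at 195309935 to 195310085 in replicate 1 and of 10 at 195309979 to 195310103 in replicate 2. It lay outside H3K27ac and H3K4me1 regions. For MUC1 the nearest replicate 2 peak was 140.7 kb below the window, for MUC5AC and MUC5B it was 177.4 kb above, and for MUC16 it was 98.9 kb above. In replicate 1 the nearest peaks lay on the opposite sides, 1006 kb above the MUC1 window, 538.4 kb below that of MUC5AC and MUC5B and 264.1 kb below that of MUC16. One further replicate 2 peak lay 78.0 kb above the MUC13 window, with a score of 10 and in neither mark. The peak called in both replicates was thus the one below MUC4, and it is outside every window.

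The histone marks differed widely between the windows. H3K27ac regions covered 13.8% of the MUC1 window, 13.02% of the MUC13 window, 4.99% of the MUC5AC and MUC5B window, 4.39% of the MUC4 window and 0.608% of the MUC16 window. Over the genome, taken up to the last interval of each chromosome, they covered 2.10%. The order for H3K4me1 was different. It covered 5.94% of the MUC5AC and MUC5B window, 3.81% of the MUC13 window, 3.56% of the MUC1 window, 2.29% of the MUC4 window and 0.218% of the MUC16 window, beside 0.764% of the genome. The MUC16 window was below the genome level for both marks and the other windows were above it. By 10 kb bins, H3K27ac was found in 21 of 80 bins (26.3%), beside 11.0% of all bins, and H3K4me1 in 19 of 80 (23.8%), beside 8.47%. The genome level includes stretches without genes, and windows around other genes were not compared.

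**Figure D2:**
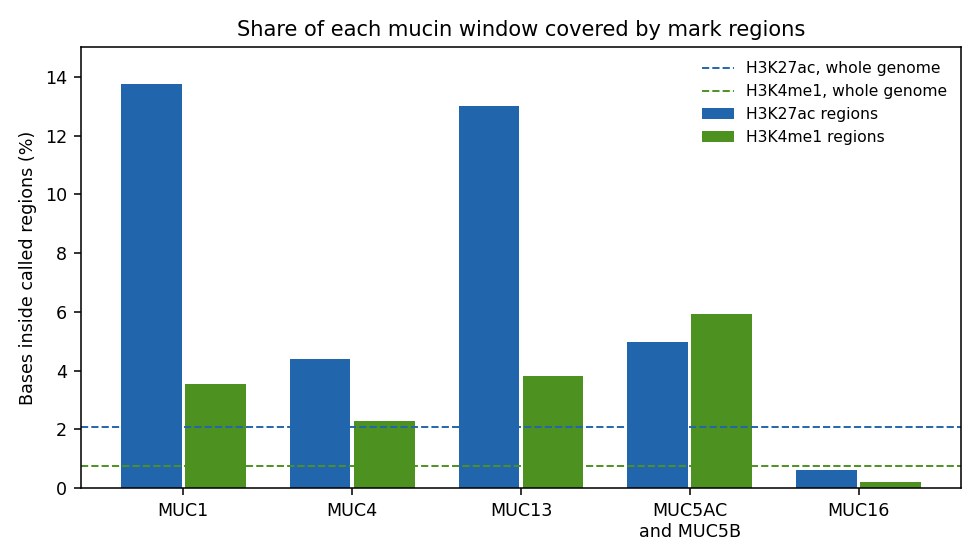
Bars give the percent of bases of each window inside called H3K27ac or H3K4me1 regions, and dashed lines give the same over the genome (2.10% and 0.764%). The MUC1 and MUC13 windows have the tallest H3K27ac bars, and only in the MUC5AC and MUC5B window is the H3K4me1 bar the taller.

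Of the windows of membrane-bound mucins, that of MUC13 had the most acetylated bases, 16.9 kb. This window of 130 kb held 5 H3K27ac regions, and 3 of them were wider than 4000 bp. They lay at 124576385 to 124581183, 124595297 to 124600558 and 124602223 to 124606970 on chromosome 3. Their scores were 302, 341 and 224, and in the whole list 4.75%, 3.83% and 7.60% of regions scored as high. These 3 regions spanned 30.6 kb at the lower end of the window and made up 14.8 kb, or 87.5%, of its H3K27ac bases. Without them the covered share would be 1.63%. This is not set against the genome level, which keeps its own regions of over 4000 bp. The other 2 regions were 871 bp wide with a score of 21 and, at 124653313 to 124654562, 1250 bp wide with a score of 30.

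Each EHF peak of the MUC13 window lay wholly inside 1 of the wide regions. The peak that scored 10 was in the region that scored 341, with its centre 2.25 kb from the lower and 3.01 kb from the upper end. The peak that scored 14 was in the region that scored 224, at 2.87 kb and 1.88 kb from the ends. The 2 peak centres were 7.55 kb apart. Both of 2 peaks were thus in H3K27ac, beside 63.8% of the replicate 2 list, and with 2 peaks the exact 95% interval is 15.8% to 100%. The other wide region, which scored 302, held no EHF peak. Read from the regions, 2 of the 20 H3K27ac regions in all 5 windows held a replicate 2 peak (10.0%, exact 95% interval 1.24% to 31.7%), beside 8.99% of the list, and 0 of 20 held a replicate 1 peak, beside 2.65%. Of the 3024 H3K27ac regions in the genome wider than 4000 bp, 24.7% held a replicate 2 peak and 9.16% a replicate 1 peak, and of the 4 such regions in the windows 2 and 0 did.

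H3K4me1 lay beside the EHF peaks of the MUC13 window and not under them. The peak that scored 10 was 39 bp above the end of an H3K4me1 region at 124595642 to 124597442, the widest of the window at 1801 bp, with a score of 41 that 5.26% of the list reached. The peak that scored 14 was 972 bp from an H3K4me1 region of 501 bp at 124603554 to 124604054, whose score of 9 was near the bottom of its list. Neither peak overlapped H3K4me1, beside 7.98% of the replicate 2 list that did. Extending the peaks by 200 bp on each side gave 1 of 2. The other 5 H3K4me1 regions of the window had scores of 10 to 15 and widths of 501 to 644 bp. The window was meant to hold the gene span plus about 20 to 50 kb on either side. MUC13 is on the minus strand, so by that rule its start would lie about 20 to 50 kb below the upper end. The only H3K27ac region in that stretch was the one at 124653313 to 124654562, with a score of 30. It ended 45.44 kb before the upper end and overlapped an H3K4me1 region of 501 bp. Both peaks and the wide H3K27ac regions lay towards the lower end, which is the side of ITGB5 in the RefSeq order. The peaks began 27.5 kb and 35.03 kb into the window, and the upper peak ended 94.85 kb before the window did. By the rule both peaks would thus be well away from the MUC13 start, towards or beyond the other end of the gene. The exact place of the gene was not checked. Whether the peaks are in MUC13, in a neighbour or between genes was not analysed here.

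**Figure D3:**
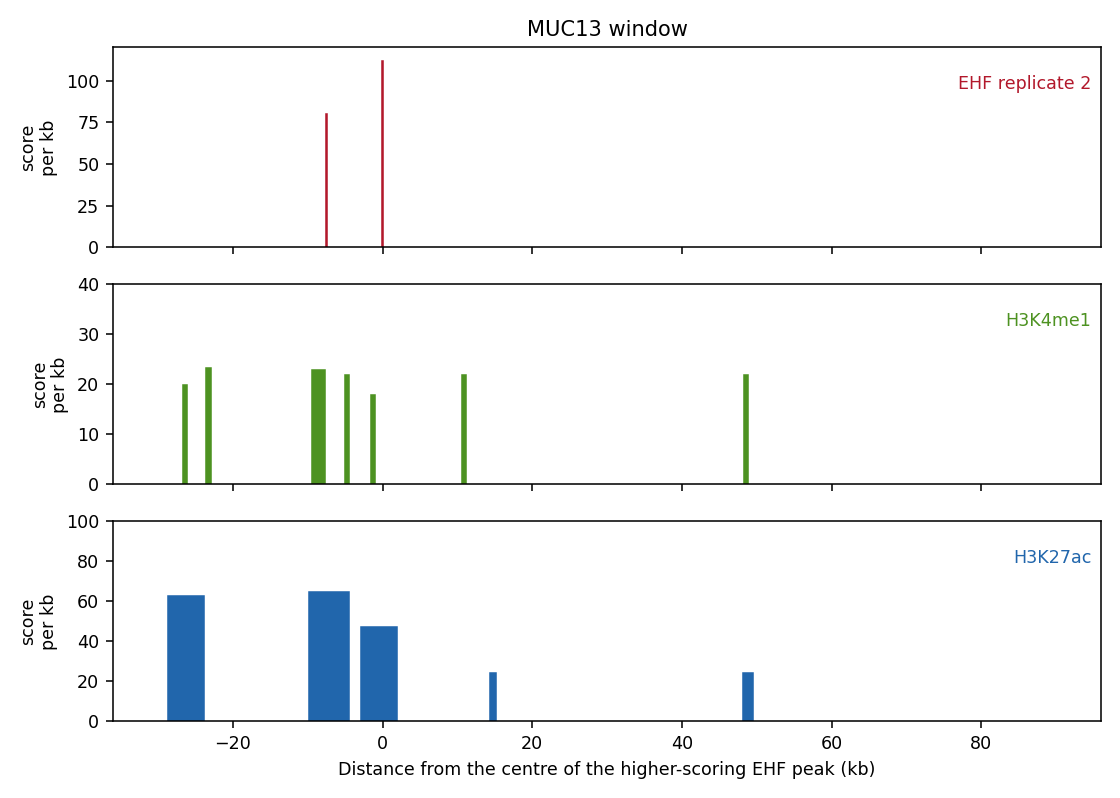
The MUC13 window, by distance in kb from the centre of the EHF peak that scored 14. Bars span each called interval, and their height is the deposited score per kb, on its own scale from 0 in each panel. Both EHF peaks (80.0 and 112.0 per kb) stand over wide H3K27ac regions of 64.8 and 47.2 per kb. H3K4me1 regions of 18.0 to 22.8 per kb overlap these 2 H3K27ac regions but not the peaks.

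The MUC1 window, at 40 kb the smallest, had the largest covered share of H3K27ac of the 5 windows. It held 4 H3K27ac regions, at 155145138 to 155145911, 155158595 to 155159220, 155162126 to 155164551 and 155177956 to 155179635 on chromosome 1. Their scores were 28, 9, 57 and 57, and the list median was 38. The widest, of 2426 bp, held an H3K4me1 region of 501 bp with a score of 12. The narrowest, of 626 bp, lay wholly within an H3K4me1 region of 921 bp with a score of 23. The outer 2 regions had no H3K4me1 within 12499 and 14608 bp. None of the 4 H3K27ac regions of the MUC1 window reached the top 10% of the list in score or width, so the large share came from 4 moderate regions in a small window. The last of them ended 0.365 kb before the window did.

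The 170 kb window of MUC4, another membrane-bound mucin, had marks at 3 places. The lowest began 22.1 kb into the window, on the side of MUC20 in the RefSeq order. At the lower end an H3K27ac region of 2678 bp at 195442146 to 195444823 had a score of 221, which 7.75% of the list reached, and 82.5 per kb, which 2.56% reached. It held 2 H3K4me1 regions, and next to it an H3K27ac region of 1186 bp with a score of 43 held another, of 891 bp with a score of 25. These 2 H3K27ac regions spanned 5.98 kb and made up 51.8% of the acetylated bases of the window. After 99.2 kb without any interval, an H3K27ac region of 1799 bp at 195547326 to 195549124 with a score of 56 met an H3K4me1 region of 1097 bp with a score of 29. An H3K4me1 region of 764 bp with a score of 25 followed 1409 bp above it. Another H3K27ac region of 1799 bp, with a score of 39, lay at 195573364 to 195575162 without H3K4me1. All 5 H3K4me1 regions of the MUC4 window had 26.4 to 37.9 score per kb, above the upper quartile of the list at 25.9. Regions of chromosome 3 outside the windows had a median of 23.95 per kb for H3K4me1.

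The window of MUC16, the membrane-bound mucin that carries CA125, had few marks. Over 230 kb it held 1 H3K27ac region, 1399 bp wide at 8942338 to 8943736 on chromosome 19 with a score of 46, and 1 H3K4me1 region of 501 bp at 8941898 to 8942398 with a score of 9. They shared 61 bp and lay towards the lower end of the window, on the side of MBD3L1 in the RefSeq order. The H3K27ac score was above the list median of 38, and 32.9 per kb was within the quartiles of the list, 20.4 and 40.2. The remaining 196.3 kb up to the end of the window had no interval in any of the 4 lists. An H3K27ac region lay 25.27 kb beyond that end. The bases before the 2 RefSeq starts of MUC16 are at chr19:9065752-9066001 and chr19:9010410-9010659 in GRCh38.p14. Whether both starts fall inside this hg19 window was not checked, because the builds differ. Chromosome 19 outside the windows had 3.23% of its bases in H3K27ac regions.

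The secreted mucins MUC5AC and MUC5B shared a window of 230 kb that was rich in H3K4me1. It held 10 H3K4me1 regions covering 13.7 kb and 6 H3K27ac regions covering 11.5 kb. The highest scores were 44.7 kb into the window, where an H3K27ac region of 4371 bp at 1144692 to 1149062 on chromosome 11 had a score of 374, reached by 3.29% of the list, and 85.6 per kb, reached by 2.25%. It coincided with an H3K4me1 region of 4172 bp at 1144675 to 1148846, and 4155 bp were in both. That H3K4me1 region had a score of 97, reached by 0.416% of its list, and only 0.147% of the list was as wide. Next to it an H3K27ac region of 2319 bp at 1149993 to 1152311 with a score of 82 held an H3K4me1 region of 1380 bp with a score of 38. These 2 H3K27ac regions made up 58.3% of the acetylated bases of the window, within 7.62 kb. The EHF peaks nearest to the region that scored 374 were 583068 bp away in replicate 1 and 325791 bp away in replicate 2.

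Beyond a stretch of 72.0 kb without intervals, the rest of the MUC5AC and MUC5B window had smaller regions. The H3K27ac region at 1224309 to 1225870, 1562 bp wide with a score of 35, held an H3K4me1 region of 1112 bp with a score of 23. An H3K27ac region of 501 bp with a score of 8 overlapped an H3K4me1 region of 726 bp, and 2167 bp beyond it lay an H3K4me1 region of 2311 bp at 1243287 to 1245597 without H3K27ac. Its score of 38 was reached by 6.49% of the list and its width by 1.55%, but its 16.4 per kb was exceeded or equalled by 99.5%. The H3K27ac regions further up had scores of 35 and 44, and each overlapped an H3K4me1 region, the wider of 1705 bp at 1325289 to 1326993 with a score of 44. In all, 4 of the 10 H3K4me1 regions were without H3K27ac and 6 overlapped it, beside 45.2% of the list that did. Every 1 of the 6 H3K27ac regions had H3K4me1, beside 34.5% of the list.

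**Figure D4:**
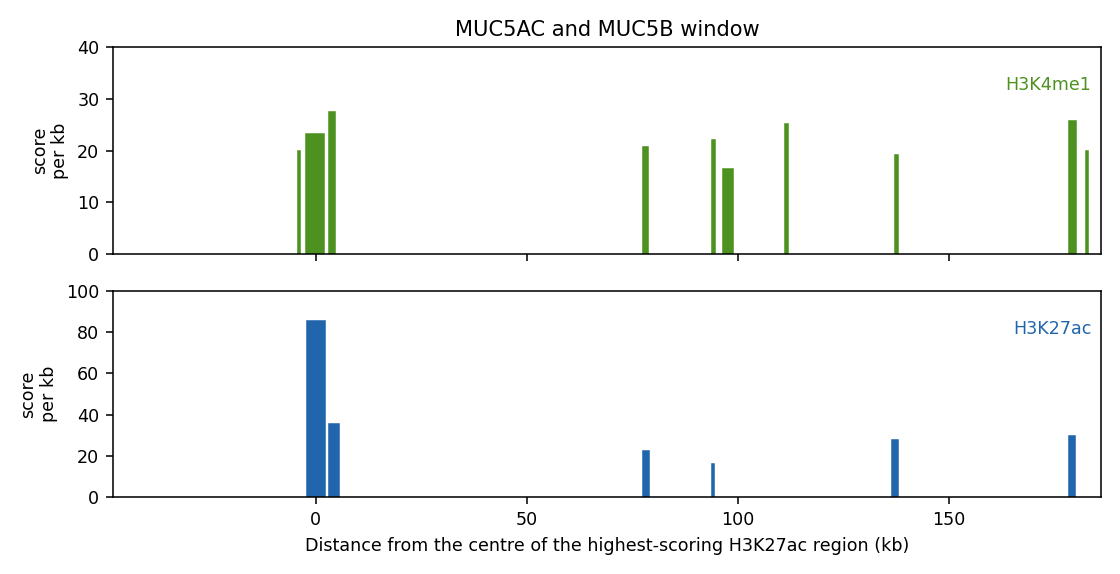
The MUC5AC and MUC5B window, by distance in kb from the centre of the H3K27ac region that scored 374. Bars span each called region, and their height is the deposited score per kb, from 0 to 40 for H3K4me1 and from 0 to 100 for H3K27ac. The tallest H3K27ac bar (85.6 per kb) lies over the widest H3K4me1 bar, and the H3K4me1 region of 2311 bp has no H3K27ac bar under it.

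Set side by side, the membrane-bound windows had 24.6 H3K27ac regions per Mb (exact Poisson 95% interval 13.4 to 41.2) and the secreted window 26.1 (9.57 to 56.8). For H3K4me1 the densities were 26.3 (14.7 to 43.4) and 43.5 (20.9 to 80.0) per Mb. The intervals overlapped for both marks. H3K27ac covered 5.49% of the membrane-bound and 4.99% of the secreted windows, and H3K4me1 covered 1.89% and 5.94%. In the membrane-bound windows 25.6% of the acetylated bases were also in H3K4me1 regions, from 4.36% for MUC16 to 41.2% for MUC4, and in the secreted window 77.7% were. Over the genome that share was 15.3%. A single secreted window allows no test of this difference, and 1 region pair, the one that scored 374 and 97, made up 4155 of the 8921 bp in both marks there.

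The marks met often in the windows. Of the 20 H3K27ac regions, 16 overlapped an H3K4me1 region by at least 1 bp (80.0%, exact 95% interval 56.3% to 94.3%), beside 34.5% of the whole list. With both lists limited to scores at or above their medians the counts were 7 of 13 (53.8%, 25.1% to 80.8%), beside 30.8% of the list. In 10 of the 20 the centre itself lay in H3K4me1 (exact 95% interval 27.2% to 72.8%), beside 14.7% of the list. The 4 without H3K4me1 were the outer 2 regions of the MUC1 window, the upper region of the MUC4 window and the region of 871 bp in the MUC13 window. The 4 regions wider than 4000 bp in all windows had H3K4me1, as did 70.9% of such regions in the genome. From the other side, 18 of the 25 H3K4me1 regions overlapped H3K27ac (72.0%, 50.6% to 87.9%), beside 45.2% of the list. Regions of 1 window are neighbours and not independent, and no test was made.

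In score the regions of the mucin windows were spread through their lists. The median score per kb was 32.0 for the 20 H3K27ac regions, beside 27.9 for the list, and 22.8 for the 25 H3K4me1 regions, beside 23.3. By window the H3K27ac medians were 47.2 in MUC13, 33.7 in MUC4, 28.9 in MUC5AC and MUC5B and 28.7 in MUC1, and the single region of MUC16 had 32.9. The top 10% of the H3K27ac list by score held 5 of the 20 regions, 3 of them in the MUC13 window and 1 each in the MUC4 window and the MUC5AC and MUC5B window. Of the H3K4me1 regions 5 of 25 were in the top 10% by score, 4 in the MUC5AC and MUC5B window and 1 in the MUC13 window. At the other end, 10 of the 25 H3K4me1 regions had the smallest width the caller gave, 501 bp, as had 53.3% of the list. Outside the windows the median H3K27ac score per kb was 28.9 on chromosome 1, 29.9 on chromosome 3, 26.98 on chromosome 11 and 29.3 on chromosome 19. These medians are over whole chromosomes, and the part of gene copy number in the scores was not tested.

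**Figure D5:**
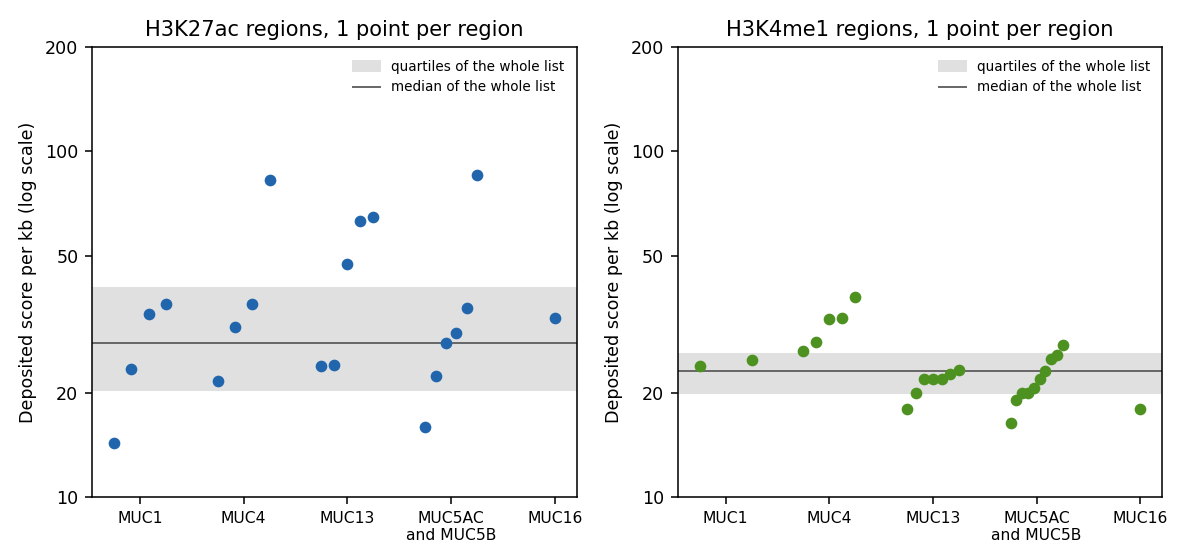
Each point is 1 called region of a mucin window, at its deposited score per kb on a log axis, for H3K27ac (left) and H3K4me1 (right), with points spread sideways by rank. The grey band and line give the quartiles and the median of the whole list. The H3K27ac points above the band are 3 of MUC13 and 1 each of MUC4 and of MUC5AC and MUC5B, and the H3K4me1 points of MUC4 all lie above it.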

How the data were processed

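The deposited files are 4 interval lists, 1 for each of the 2 EHF libraries and 1 for each mark. The labels also list 2 input DNA libraries, not analysed here. Bowtie 1.0.0 and HOMER 1.2 with hg19 were used, per the submitters' processing notes. Per the file headers, the authors called each library separately against input DNA (false discovery rate 0.01, 4-fold over input). Total tags were 10176290 and 8418631 for EHF replicates 1 and 2, 12989646 for H3K4me1 and 21426939 for H3K27ac, with 0.155%, 0.740%, 5.80% and 28.9% inside called intervals. The score is the deposited normalized tag count, per the file headers, rounded to whole numbers and not an enrichment over input.

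The members, windows and lists were chosen with earlier results of these data known. Intervals were counted, overlapped and measured with Python 3.11.15, numpy 2.4.6 and scipy 1.17.1 (functions tested on simulated data), and figures were drawn with matplotlib 3.10.9. All EHF peaks, and per window the 3 longest and the highest-scoring regions of each mark and any that hold an EHF peak, were to be named. Exact binomial (Clopper-Pearson) and Poisson intervals cover counting error only. There was no test between groups. Alternatives changed the overlap rule, the score minimum, the window ends, the merging of regions and the replicate used. Genes other than the 6 were not counted, and peak sequences were not used here.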

Additional observations from a re-analysis of the deposited data

How the results depend on the processing

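Of 41 alternative values, 28 stayed close to the reported value (counts by ratio, covered shares within the binomial interval). That interval took each base as independent, although bases of 1 region go together, so it was too narrow. For covered shares the tally therefore does not measure stability, and the values themselves are given. With scores limited to the list median or higher, the EHF peaks fell from 2 to 1, in the windows and in H3K27ac, the H3K27ac and H3K4me1 covered shares were 4.49% and 2.41%, and the H3K27ac regions with H3K4me1 were 7 of 13. Leaving out 1 EHF replicate gave 2 peaks without replicate 1 and 0 without replicate 2, so the overlaps of EHF peaks without replicate 2 have no value. Extending the peaks by 200 bp gave 1 peak in H3K4me1 in place of 0. By region centre, 10 H3K27ac regions had H3K4me1 in place of 16. Windows shortened by 20 kb at each end had covered shares of 4.87% (H3K27ac) and 3.28% (H3K4me1), those lengthened by 20 kb had 5.91% and 2.98%, and merging regions gave 5.46% for H3K27ac. The shortened MUC1 window has no length, so it drops out. No EHF peak of the windows was found in both replicates under any alternative run. The cause of these shifts was not tested. No paired analysis was possible because the results are counts and shares from lists, with no test that could take a block. EHF replicate 1 had more tags in total than replicate 2, but 0.155% of them were in peaks, beside 0.740%. Whether sites were missed in replicate 1 was not tested.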

Other observations

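The surroundings of the windows were also read. The single pair of mark regions in the MUC16 window stood between 2 long stretches of chromosome 19 without an interval in any list, of 296.0 kb at 8645876 to 8941897 and of 221.5 kb at 8943737 to 9165273. An EHF peak of replicate 1 with a score of 8, in neither mark, ended just below the first stretch. Above the upper H3K27ac region of the MUC13 window, chromosome 3 had 119.2 kb without an interval. The marks at the lower end of the MUC4 window were flanked by empty stretches of 99.9 and 99.2 kb.

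Some window ends cut through marked ground. In the MUC5AC and MUC5B window the last H3K4me1 region ended 0.169 kb before the upper end, and an H3K27ac region began 0.079 kb beyond it. An H3K4me1 region began 0.448 kb beyond the upper end of the MUC4 window, and an H3K27ac region ended 4.70 kb below the MUC13 window.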
